A study of Homo sapiens with 24 samples.

Results

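Long noncoding RNAs expressed in OVCAR-3 cells were followed from total RNA to heavy polysomes and through treatment with carboplatin and INK128. Genes were taken when the platform symbol began with LINC or SNHG and a number, ended in -AS, -DT or -IT, or was CYTOR, MALAT1, NEAT1 or GAS5, and when the mean log2 signal over all 24 arrays reached 6. Of 14884 named genes, 1087 carried such a symbol, 885 of them lay below the threshold, and the remaining 202 are described here, each by the probeset with the highest mean. NEAT1 was not analysed here. All 202 matched a RefSeq gene by gene ID. They comprised 62 intergenic RNAs (LINC), 29 divergent transcripts (-DT), which start next to a protein-coding gene and run the other way, 7 hosts of small nucleolar RNAs (snoRNAs), 1 intronic transcript (RPS6KA2-IT1), CYTOR and MALAT1, and all others were antisense RNAs (-AS), named after the gene they lie opposite. The genes were thus chosen by their symbol and selected on their mean signal over all arrays, which is given only as a description. Their median was 6.69, against 8.03 for all 8713 genes that passed the same threshold, and 61.9% of them lay below 7, against 26.1% of all. Just inside the threshold were LINC01144 (6.02), FAM86B2-DT (6.02) and LRP4-AS1 (6.01), and just outside it were LINC01134, the nearest, PSMG3-AS1 (5.99) and NUTM2A-AS1 (5.99).

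OVCAR-3 is an established human cell line from an ovarian carcinoma that had become resistant to platinum drugs. The cells received the solvent DMSO, 1 µM carboplatin for the last 5 h, 0.25 µM INK128 for 24 h, or both, with INK128 added 19 h ahead of carboplatin, and all were harvested at 24 h. Carboplatin cross-links DNA, and INK128 blocks the kinase mTOR in both of its complexes. Total RNA and the RNA bound by at least 4 ribosomes were hybridized to separate Affymetrix Human Gene 2.0 ST arrays, which read the signal of each transcript relative to the rest of its own sample, so the amount of polysome RNA per cell was not measured. For 4 of the 24 arrays (labelled carboplatin polysome 1, carboplatin total 1, and combination total 1 and 2) the values equalled, within 0.0001 at all of 527 or 676 probesets compared, those that the study's own datasets give for another condition, and these arrays were left out. The 20 arrays used were 13 of polysome RNA (3 DMSO, 4 carboplatin, 3 INK128 and 3 combination) and 7 of total RNA (2 DMSO, 3 carboplatin and 2 INK128), so the combination had no total RNA group. The epithelial and Mullerian markers EPCAM, KRT7, KRT8, KRT18, PAX8, SOX17, MSLN and WT1 had mean signals from 6.96 to 12.2, whereas PECAM1 and VWF of endothelial cells (5.06 and 5.49) and DCN and LUM of fibroblasts (2.78 and 4.04) lay below the threshold. CD68, a macrophage marker that other cells also express, was at 9.73.

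Among the polysome arrays, 2 stood apart. The median signal of the 202 RNAs minus that of all genes tested was -1.26 on DMSO polysome array 1, between the other DMSO polysome arrays (-1.56 and -1.59) and the total RNA arrays (-1.23 to -0.91). Of the 202 RNAs, 153 (75.7%) were highest on this array among the 3 DMSO polysome arrays, against 44.3% of all genes tested. Combination polysome array 3 had the lowest median correlation with the other polysome arrays (0.977, against 0.983 to 0.991), and its difference between these medians was -1.19. The leading counts of the main polysome comparisons, and some of the named values that these arrays move, are given with and without at least 1 of them.

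A long noncoding RNA is a transcript with no long conserved reading frame. Some act in the nucleus, others are brief by-products of transcription next to a coding gene, and many reach the cytoplasm, where ribosomes may engage short reading frames in them. The snoRNA hosts are spliced like mRNAs, their introns release the snoRNAs that guide modification of ribosomal RNA, and in GAS5 and several others the spliced exons begin with a terminal oligopyrimidine (TOP) tract, a C followed by further pyrimidines, the element that places ribosomal protein mRNAs under mTOR. Their spliced RNAs are known targets of nonsense-mediated decay, which needs a ribosome on the transcript. MALAT1 is retained in nuclear speckles, and CYTOR is an RNA studied for its part in the growth of several tumours.

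The start regions of the snoRNA hosts are shown because such tracts lie at the start of a transcript. Each line holds 70 bases of RefSeq (GRCh38.p14), from 20 before the annotated start to 50 after it, on the transcribed strand, with the motif CTTT and the T that follow it in capitals.

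GAS5, chr1:173868996-173869065, minus strand: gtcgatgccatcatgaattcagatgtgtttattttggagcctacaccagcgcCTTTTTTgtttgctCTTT
SNHG5, chr6:85678684-85678753, minus strand: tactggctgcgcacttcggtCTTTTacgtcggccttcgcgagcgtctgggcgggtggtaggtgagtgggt
SNHG8, chr4:118278742-118278811, plus strand: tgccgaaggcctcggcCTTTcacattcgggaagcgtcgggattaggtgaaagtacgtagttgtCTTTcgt
SNHG16, chr17:76557744-76557813, plus strand: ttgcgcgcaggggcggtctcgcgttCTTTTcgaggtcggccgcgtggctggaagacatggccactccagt
SNHG17, chr20:38435279-38435348, minus strand: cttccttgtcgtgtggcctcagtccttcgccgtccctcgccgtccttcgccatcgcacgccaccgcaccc
SNHG20, chr17:77088623-77088692, plus strand: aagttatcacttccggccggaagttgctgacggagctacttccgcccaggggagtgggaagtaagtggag

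CTTT was present on the transcribed strand in 4 of these 6 windows, against 8467 of 35116 RefSeq windows of the same length (24.1%), and on either strand again in 4, against 40.1%. SNHG15 is named only. In SNHG5 the run opens at the annotated start itself, whereas in GAS5 it lies inside the annotated transcript. CTTT does not cover every tract of a C and further pyrimidines, and it was counted before as well as after the annotated start. In SNHG8 the first match lies before the start. The count therefore does not tell which hosts carry a TOP tract. A match is a match of letters, and use of these starts in OVCAR-3 cells was not measured.

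The first comparison asked which long noncoding RNAs were under- or over-represented in heavy polysomes. It took the polysome minus total RNA difference within DMSO, carboplatin and INK128 and averaged the 3 differences. Of the 202 RNAs, 106 passed the threshold (limma, adjusted p under 0.05), of which 4 (1.98%) were higher in polysome RNA and all others (50.5% of the 202) lower, against 30.7% higher and 15.7% lower among all genes tested. The median difference was -0.29 on the log2 scale, with quartiles of -0.67 and -0.02, against a median of 0.09 for all genes tested. Without DMSO polysome array 1, 116 (57.4%) were lower and 5 (2.48%) higher, with a median of -0.37, against 18.7% and 32.8% of all genes tested. The shares were also compared at like mean signal. Of RNAs with a mean signal from 6 to 7, 50 of 125 (40.0%) were lower, against 12.3% of the other genes in that range. From 7 to 8 the shares were 29 of 46 (63.0%) and 15.9%, and at 8 and above 23 of 31 (74.2%) and 15.7%. Of 35 RNAs with more than 1 probeset, 9 were lower on every probeset, 9 on some and 17 on none.

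**Figure D1:**
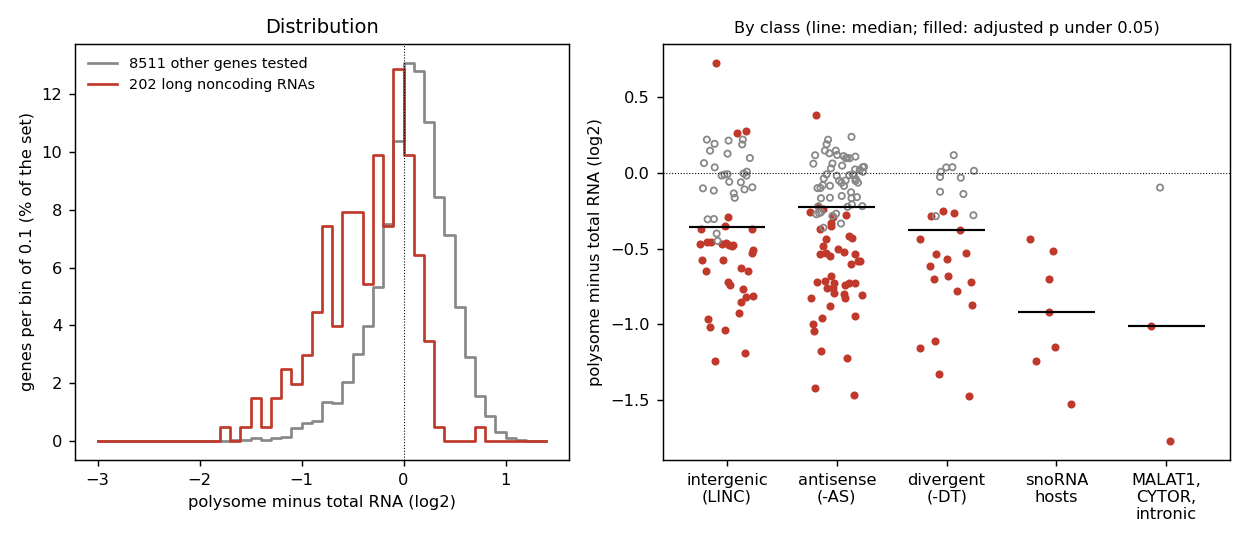
Polysome minus total RNA (log2) of 202 long noncoding RNAs and 8511 other genes, as a percentage of each set per bin of 0.1 (left), and of each long noncoding RNA by class (right), where the line is the median and filled points passed an adjusted p of 0.05. The long noncoding RNAs lie to the left of the other genes, with a median of -0.29, and all 7 snoRNA hosts are filled points below 0.

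All 7 snoRNA hosts were lower in polysome RNA, with a median of -0.91. GAS5, host of box C/D snoRNAs and a TOP transcript, had signals of 8.37, 7.45 and 7.57 on the DMSO polysome arrays, 7.74, 7.36, 7.70 and 7.78 with carboplatin and 7.33, 8.06 and 7.56 with INK128. Its total RNA signals were 8.91 and 8.88 with DMSO, 9.32, 9.0 and 9.66 with carboplatin, and 9.33 and 9.54 with INK128. Every polysome array lay below every total RNA array, and the highest polysome value belonged to DMSO array 1. The difference was -1.52 (SE 0.14), a 2.88-fold lower signal (limma, adjusted p = 1.91e-06).

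SNHG5, another host of box C/D snoRNAs, ranged over 6.03, 6.31 and 6.67 (lowest, median and highest of the 10 polysome arrays of these treatments) and over 7.20, 7.43 and 8.33 on the 7 total RNA arrays. SNHG16, a tumour-associated host, ranged over 11.21, 11.47 and 11.89 on polysomes and 12.05, 12.28 and 12.31 in total RNA. SNHG20 ranged over 7.41, 7.82 and 7.97 on polysomes and 8.07, 8.25 and 8.55 in total RNA. In each of these 3 hosts the fractions did not overlap. The differences were -1.24 (SE 0.17, limma, adjusted p = 2.93e-05) for SNHG5, -0.70 (SE 0.11, adjusted p = 7.78e-05) for SNHG16 and -0.52 (SE 0.09, adjusted p = 0.000234) for SNHG20.

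In the other hosts the fractions overlapped. SNHG15 ranged over 6.20, 6.40 and 7.47 on polysomes and 7.31, 7.81 and 7.99 in total RNA, and only DMSO polysome array 1 reached into the total RNA range. Its difference was -1.15 (SE 0.15, limma, adjusted p = 2.70e-05). SNHG8 ranged over 7.07, 7.46 and 8.83 on polysomes and 7.88, 8.45 and 9.67 in total RNA, a difference of -0.91 (SE 0.30, adjusted p = 0.0179). SNHG17 ranged over 7.63, 7.94 and 9.0 on polysomes and 8.14, 8.52 and 8.89 in total RNA, where again DMSO polysome array 1 was the highest of all. Its difference of -0.43 (SE 0.16, adjusted p = 0.0355) was the smallest of the hosts, and it missed the threshold in 14 of 33 refits with another setting or an array left out (-0.59 to -0.31 over all of them). Of 7 protein-coding snoRNA hosts tested, 1 was lower and 1 higher, with a median of -0.06.

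MALAT1, the speckle RNA, showed the largest difference of the 202. Its polysome signals were 9.89, 8.97 and 8.86 with DMSO, 9.14, 8.75, 8.20 and 7.88 with carboplatin and 9.07, 8.88 and 8.70 with INK128. Its total RNA signals were 11.17 and 10.68 with DMSO, 10.92, 9.38 and 10.07 with carboplatin and 10.52 and 11.22 with INK128. The ranges met at DMSO polysome array 1 and a carboplatin total RNA array, and elsewhere polysome signals were lower. The difference was -1.77 (SE 0.26), a 3.40-fold lower signal (limma, adjusted p = 6.06e-05), and on the other MALAT1 probesets it was -1.69 and -1.51. A clear signal remained on every polysome array.

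CYTOR ranged over 10.20, 10.61 and 11.42 on polysomes and 11.19, 11.85 and 12.01 in total RNA. DMSO polysome array 1 was the highest polysome value and lay above both DMSO total RNA arrays (11.19 and 11.40), while every other polysome array lay below all of total RNA. The difference was -1.01 (SE 0.14, limma, adjusted p = 4.88e-05), with -0.88 and -0.77 on the other probesets of CYTOR.

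**Figure D2:**
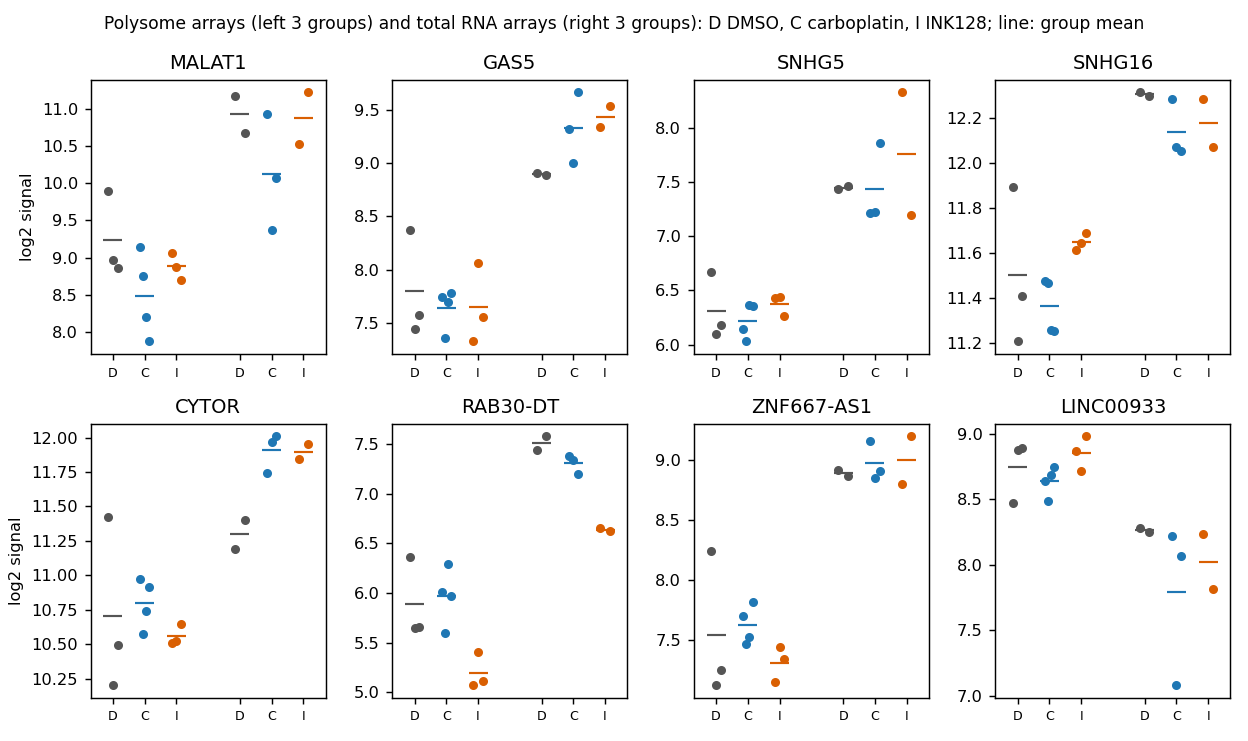
Log2 signal of 8 long noncoding RNAs on each array used, in polysome RNA (left 3 groups) and total RNA (right 3 groups) after DMSO, carboplatin or INK128, where each point is an array, the line is the group mean and the vertical scale differs between panels. GAS5 shows no overlap of the fractions (7.33 to 8.37 against 8.88 to 9.66), and LINC00933 shows the reverse order.

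Of the 62 intergenic RNAs 31 were lower and 3 higher (median -0.36), of the antisense RNAs 44 were lower and 1 higher (median -0.23), and of the 29 divergent transcripts 18 were lower and 0 higher (median -0.38, with 18 past an unadjusted p of 0.05). RAB30-DT, transcribed away from the gene of the small GTPase RAB30, ranged over 5.07, 5.65 and 6.36 on polysomes and 6.63, 7.34 and 7.58 in total RNA. ZNF667-AS1, opposite a zinc finger gene, ranged over 7.12, 7.45 and 8.24 on polysomes and 8.80, 8.91 and 9.20 in total RNA. In both the fractions were fully separate, with differences of -1.47 (SE 0.12, limma, adjusted p = 7.71e-07) and -1.46 (SE 0.13, adjusted p = 1.69e-06). The polysome median of RAB30-DT lay below 6, so it reached the mean signal of 6 through its total RNA arrays. The other RNAs with the largest differences were RBM26-AS1 (-1.42), SEPSECS-DT (-1.33), LINC01139 (-1.24), ZBED5-AS1 (-1.22) and LINC01278 (-1.19). A further RBM26-AS1 probeset, of low signal (mean 3.54), differed by -0.16 (SE 0.09, limma, adjusted p = 0.169). Over all 202 RNAs, 15 (7.43%) had every polysome array below every total RNA array and 1 (0.495%) had every polysome array above, against 1.25% and 3.99% of all genes tested.

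The 4 RNAs that were higher in polysome RNA were LINC00933, ZNF566-AS1, LINC00896 and LINC02716, of which little is known. LINC00933 ranged over 8.47, 8.73 and 8.98 on polysomes and 7.08, 8.22 and 8.28 in total RNA, with no overlap. Its difference was 0.72 (SE 0.24, limma, adjusted p = 0.0213), and it was no longer past the threshold without DMSO total array 2 (0.72) or INK128 total array 2 (0.65), or with matched pairs as a block (0.33). Its other probeset, of low signal (mean 4.81), differed by 0.03 (SE 0.09, adjusted p = 0.785). On combination polysome array 3, which did not enter this difference, LINC00933 was at 6.61. ZNF566-AS1 (0.38, SE 0.14, adjusted p = 0.0348), LINC00896 (0.27, SE 0.08, adjusted p = 0.00793) and LINC02716 (0.26, SE 0.08, adjusted p = 0.00941) showed overlapping fractions, and ZNF566-AS1 missed the threshold in 11 of 32 refits with another setting or an array left out. The next in order was PCNA-AS1, opposite the gene of the replication clamp, at 0.24 (SE 0.17, adjusted p = 0.278).

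Antisense, divergent and intronic RNAs were then set beside the genes they are named after. For 73 of 131 such RNAs the partner was tested, 71 partners in all, and in 60 of the 73 pairs the noncoding RNA had the lower difference. The median was -0.26 for these noncoding RNAs and 0.11 for the partners, of which 27 were higher and 7 lower. In 11 pairs the noncoding RNA was lower in polysome RNA while its partner was higher, and in 5 both were lower. SEPSECS-DT differed by -1.33 and SEPSECS, which makes selenocysteinyl-tRNA, by 0.36 (SE 0.12, limma, adjusted p = 0.0215). TMEM44-AS1 differed by -1.18 and TMEM44, a membrane protein gene, by 0.30 (SE 0.11, adjusted p = 0.0322). URB1-AS1 differed by -0.80 and URB1, a ribosome biogenesis factor, by 0.62 (SE 0.16, adjusted p = 0.00375). RNASEH1-DT was lower together with RNASEH1, the enzyme that removes RNA from RNA-DNA hybrids (-0.72 and -0.47). Whether each probeset separates overlapping partners was not tested.

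**Figure D3:**
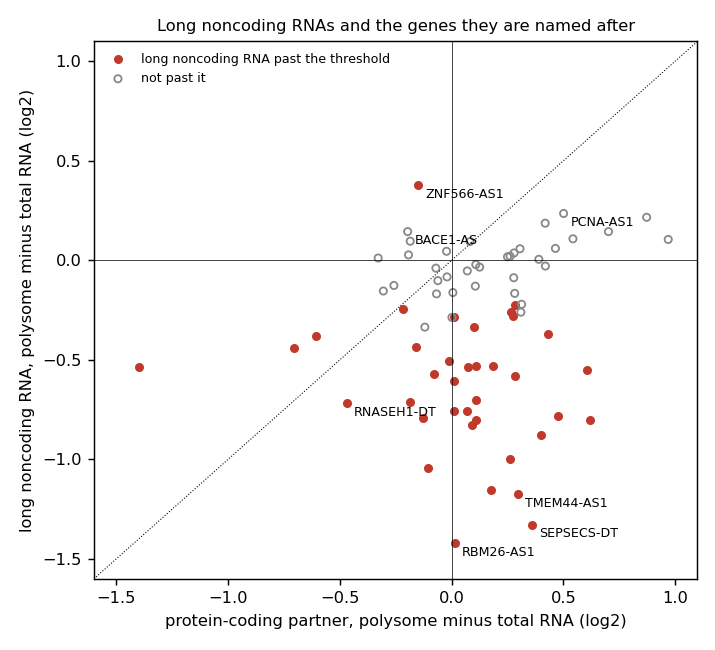
Polysome minus total RNA (log2) of 73 antisense, divergent or intronic RNAs against that of the gene each is named after, where filled points are noncoding RNAs past an adjusted p of 0.05 and the dotted diagonal marks equal differences. Of the points, 60 of 73 lie below the diagonal, such as SEPSECS-DT at -1.33 with SEPSECS at 0.36.

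The difference was present within each treatment taken alone. With DMSO 23 RNAs were lower and 0 higher (69 past an unadjusted p of 0.05), against 1.89% and 2.09% of all genes tested. With DMSO polysome array 1 left out, 80 (39.6%) were lower (median -0.42), against 9.25%. With carboplatin 49 were lower and 2 higher, against 5.73% and 17.7%. With INK128 55 were lower and 0 higher (96 past an unadjusted p of 0.05), against 5.46% and 8.7%. The treatments differ in the number of arrays, so these counts do not compare the treatments. If the 4 arrays left out are given the conditions of the datasets, the combination can be measured too. There 67 RNAs were lower and 10 higher, against 15.8% and 15.3%, and MALAT1 differed by -2.74 (SE 0.46, limma, adjusted p = 0.000461) and SNHG8 by -2.40 (SE 0.51, adjusted p = 0.00222). Without combination polysome array 3, 58 RNAs were lower and 4 higher, against 9.73% and 12.1%, with MALAT1 at -2.28 (adjusted p = 0.00322) and SNHG8 at -1.97 (adjusted p = 0.0135).

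Of lists that bear on these RNAs, the cytosolic ribosomal proteins, whose mRNAs carry TOP tracts, had 22 of 47 tested genes lower and 0 higher (24 past an unadjusted p of 0.05), with a median of -0.25. Known mRNA targets of nonsense-mediated decay had 4 of 10 higher and 2 lower (median 0.08). Paraspeckle proteins, the partners of NEAT1, had 2 of 8 higher and 0 lower (median 0.14, with 4 past an unadjusted p of 0.05). Nuclear speckle proteins had 1 of 10 higher and 3 lower (median -0.06), and nuclear exosome factors, which degrade noncoding RNA, had 3 of 14 higher and 1 lower (median 0.07).

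The next comparison asked how mTOR inhibition changed these RNAs on polysomes, as the mean of the INK128 effects without and with carboplatin over the 13 polysome arrays. Of the 202 RNAs, 10 (4.95%) were higher and 13 (6.44%) lower, against 11.6% and 17.2% of all genes tested. At a mean signal from 6 to 7, 4 of 125 RNAs (3.20%) were higher and 8 (6.40%) lower, against 11.8% and 9.15% of the other genes in that range. From 7 to 8, 2 of 46 (4.35%) were higher and 5 (10.9%) lower, against 12.5% and 18.1%. At 8 and above, 4 of 31 (12.9%) were higher and 0 lower, against 11.5% and 21.2%. Those 4 included LINC01000, LINC01347 and LINC00999, and whether the array tells these apart was not tested. The median was 0.02, against -0.04 for all genes tested. Of RNAs with every INK128 array above every array without it there were 3 (1.49%), and with every array below 2 (0.99%), against 4.81% and 7.87%. The split rests in part on the arrays that stood apart. Without DMSO polysome array 1, 19 (9.41%) were higher and 9 (4.46%) lower, against 11.2% and 16.2% of all genes tested. Without combination polysome array 3 as well, 27 (13.4%) were higher and 12 (5.94%) lower, against 13.6% and 16.1%.

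The intergenic RNAs that were higher included LINC01000, LINC01347, LINC01002 and LINC00999, and whether the array tells these apart was not tested. LINC01000 had polysome signals of 10.56, 9.88 and 9.90 with DMSO and 10.22, 9.96, 10.04 and 10.31 with carboplatin, and of 10.87, 10.99 and 10.90 with INK128 and 10.96, 10.70 and 10.61 with both drugs. All 6 arrays with INK128 were above all 7 without it. The difference was 0.72 (SE 0.12), or 1.64-fold (limma, adjusted p = 0.000815). LINC01002 ranged over 7.39, 7.51 and 7.86 with INK128 and 6.72, 6.88 and 7.32 without, again with no overlap, and differed by 0.63 (SE 0.10, adjusted p = 0.000815). LINC01347 (0.64, SE 0.13, adjusted p = 0.00239) and LINC00999 (0.62, SE 0.13, adjusted p = 0.00384) overlapped between the groups.

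LINC01061 was at 0.35 (SE 0.27, limma, adjusted p = 0.335) on the probeset with the highest mean, whereas 3 of its 7 probesets were higher with INK128, over a range of 0.35 to 0.89. Counting all their probesets, 2 of 3 were higher for LINC01000, 5 of 6 for LINC01347 and 4 of 4 for LINC00999. The 5 RNAs were then correlated over the 20 arrays. LINC01000 had a Pearson correlation of 0.971 with LINC01347, 0.934 with LINC00999, 0.825 with LINC01002 and 0.741 with LINC01061, and a Spearman rho of 0.959, 0.916, 0.789 and 0.901. The lowest of the 10 pairs was LINC01002 with LINC01061, at a Pearson correlation of 0.418 and a rho of 0.537. The arrays share treatments and fractions, and the values are a description. The start windows of LINC01002 and LINC01061, which lie on different chromosomes, are shown because they are nearly the same sequence. Each line holds 275 bases of the RefSeq window (GRCh38.p14), with the bases that differ in capitals.

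LINC01002, chr19:202160-202434, minus strand: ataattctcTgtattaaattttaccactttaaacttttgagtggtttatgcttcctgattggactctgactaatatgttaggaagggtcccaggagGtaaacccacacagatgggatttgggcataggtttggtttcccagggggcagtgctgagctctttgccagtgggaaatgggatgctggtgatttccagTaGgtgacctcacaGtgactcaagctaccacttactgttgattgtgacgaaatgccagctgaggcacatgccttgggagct
LINC01061, chr4:119410636-119410910, minus strand: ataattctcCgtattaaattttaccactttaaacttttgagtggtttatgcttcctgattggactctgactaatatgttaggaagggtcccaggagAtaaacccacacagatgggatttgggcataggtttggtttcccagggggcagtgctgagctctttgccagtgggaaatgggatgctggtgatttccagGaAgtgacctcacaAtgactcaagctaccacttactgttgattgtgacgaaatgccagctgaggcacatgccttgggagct

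They differed at 5 of 275 bases (98.2% identity), with the annotated starts offset by 25 bases. A run of 50 bases of these windows was also found in the windows of LINC01001 and of 4 genes that carry only LOC symbols, among 35116 windows searched. How the probes are divided among these near-identical sequences was not tested, so the values of LINC01002 and LINC01061 may not be those of separate genes. The start windows of LINC01000, LINC01347 and LINC00999 were not compared, so likeness of their sequences was not tested.

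LINC02035, an intergenic RNA of unknown function, had polysome signals of 8.18, 8.36 and 8.24 with DMSO and 8.27, 8.41, 8.17 and 8.30 with carboplatin, and of 8.71, 9.04 and 8.91 with INK128 and 8.95, 8.81 and 8.57 with both drugs. The groups with and without INK128 did not overlap. The difference was 0.56 (SE 0.09), or 1.47-fold (limma, adjusted p = 0.000601), the smallest adjusted p of the 202. BACE1-AS, which stabilizes the mRNA of the beta-secretase BACE1, ranged over 7.90, 8.37 and 8.52 with INK128 and 7.29, 7.79 and 7.91 without, and overlapped only at the edge. It differed by 0.61 (SE 0.11, adjusted p = 0.00176), and BACE1 itself by 0.48 (SE 0.13, adjusted p = 0.0161). GAS6-DT (0.50, adjusted p = 0.0447) was higher together with GAS6, a ligand of the TAM receptor kinases (0.81, SE 0.14, adjusted p = 0.00107). MAGOH-DT (0.45, adjusted p = 0.0496), LINC00957 (0.33, adjusted p = 0.0240) and LINC02716 (0.26, adjusted p = 0.0240) completed the 10. GAS6-DT and MAGOH-DT missed the threshold in 16 and 17 of 23 refits with another setting or an array left out, for example without DMSO polysome array 2 (0.41 and 0.38).

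**Figure D4:**
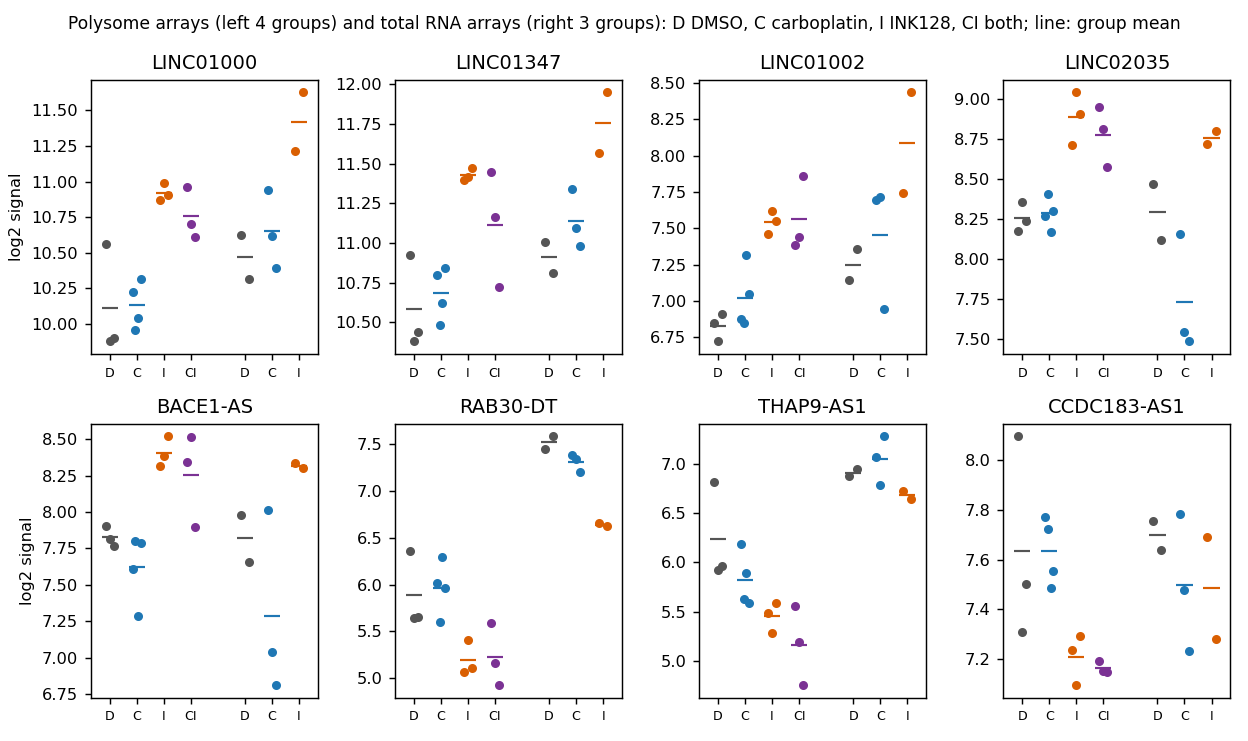
Log2 signal of 8 long noncoding RNAs on each array used, in polysome RNA (left 4 groups) and total RNA (right 3 groups), where each point is an array, the line is the group mean and the vertical scale differs between panels. LINC02035 on polysomes lies between 8.57 and 9.04 with INK128 and between 8.17 and 8.41 without, and RAB30-DT shows the reverse order.

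Of the RNAs that were lower, RAB30-DT and CCDC183-AS1 had no overlap between arrays with and without INK128. RAB30-DT had polysome signals of 6.36, 5.64 and 5.65 with DMSO and 6.01, 5.60, 6.29 and 5.97 with carboplatin, and of 5.07, 5.40 and 5.11 with INK128 and 5.59, 5.17 and 4.93 with both drugs. The arrays nearest to each other were a carboplatin array (5.60) and a combination array (5.59). The difference was -0.72 (SE 0.15, limma, adjusted p = 0.00378), and 10 of the 13 signals lay below 6. CCDC183-AS1 ranged over 7.10, 7.17 and 7.29 with INK128 and 7.31, 7.55 and 8.10 without, a difference of -0.45 (SE 0.12, adjusted p = 0.0108). THAP9-AS1 ranged over 4.75, 5.39 and 5.59 with INK128 and 5.59, 5.93 and 6.82 without, touching at 5.59. All THAP9-AS1 signals with INK128, and its median without, lay below 6. THAP9-AS1 differed by -0.72 (SE 0.17, adjusted p = 0.00652), whereas THAP9, a transposase-derived gene, differed by -0.12 (SE 0.08, adjusted p = 0.288). The others were LINC01128 (-0.62), DPY19L3-DT (-0.62), TENM3-AS1 (-0.57), UBL7-DT (-0.52), ZNF566-AS1 (-0.51), HOXA10-AS (-0.47), LINC00941 (-0.47), RNASEH1-DT (-0.46), NDUFB2-AS1 (-0.27) and ZNF503-AS2 (-0.26), with adjusted p from 0.0113 for TENM3-AS1 to 0.0453 for DPY19L3-DT. DPY19L3-DT missed the threshold in 13 of 23 such refits and RNASEH1-DT in 9 of 24, among them those without DMSO polysome array 1 (-0.42 and -0.31).

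None of the 7 snoRNA hosts passed the threshold with INK128 on polysomes (limma, 2 past an unadjusted p of 0.05), and their median was -0.10. SNHG8 was at -0.53 (SE 0.32, adjusted p = 0.226), SNHG15 at -0.50 (SE 0.19, adjusted p = 0.0610) and SNHG17 at -0.45 (SE 0.19, adjusted p = 0.0900), whereas GAS5 was at 0.01 (SE 0.16, adjusted p = 0.973), SNHG16 at 0.14 (SE 0.13, adjusted p = 0.452) and SNHG20 at 0.17 (SE 0.11, adjusted p = 0.266). Some hosts passed in part of 24 refits with another setting or an array left out. SNHG15 did so in 7 (-0.61 to -0.24 over all refits), SNHG8 in 2 (-0.80 to -0.08), SNHG17 in 2 (-0.56 to -0.10), and SNHG16 (0.03 to 0.34) and SNHG20 (0.08 to 0.28), as higher, in 2 each, among them the refit without both arrays that stood apart. SNHG5 stood at -0.10, CYTOR at -0.09 and MALAT1 at -0.22. Of the 47 ribosomal protein mRNAs, 15 were lower and 1 higher (median -0.25). The mRNA targets of nonsense-mediated decay had 7 of 10 lower and 0 higher (median -0.36), and the paraspeckle proteins 5 of 8 lower and 0 higher (median -0.31), with 8 and 5 past an unadjusted p of 0.05. Of the partners of antisense, divergent and intronic RNAs, 10 of 71 were higher and 5 lower.

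For INK128 alone against DMSO on polysomes, 4 RNAs were higher and 0 lower (limma), against 4.04% and 3.24% of all genes tested. Past an unadjusted p of 0.05 were 21 of the 202 RNAs and 2010 of 8713 genes. The 4 higher RNAs were LINC01347 (0.85), LINC01000 (0.81), LINC01002 (0.72) and LINC02035 (0.63), with adjusted p from 0.0112 to 0.0145. Without DMSO polysome array 1, 10 (4.95%) were higher and 0 lower, against 3.09% and 2.42% of all genes tested. For the combination against DMSO, 4 were higher and 3 lower, against 4.14% and 7.48%, and both comparisons share the DMSO arrays. LINC01002 (0.74), LINC01000 (0.65), LINC02035 (0.52) and LINC02716 (0.41) were the higher ones, and THAP9-AS1 (-1.07), ZNF566-AS1 (-0.78) and ZNF503-AS2 (-0.42) the lower ones. Without DMSO polysome array 1, 11 (5.45%) were higher and 2 (0.99%) lower, against 3.37% and 6.05% of all genes tested. Without combination polysome array 3, 5 (2.48%) were higher and 0 lower, against 3.48% and 3.5%. The effect of INK128 with carboplatin minus that without it passed the threshold for 0 of 8713 genes (limma, 135 past an unadjusted p of 0.05, of which 4 were long noncoding RNAs).

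In total RNA, INK128 against DMSO passed the threshold for 0 of the 202 RNAs (limma), against 0.115% higher and 0.0918% lower of all genes tested. Each group had 2 arrays. An unadjusted p of 0.05 was passed by 22 of the 202 RNAs and 1295 of 8713 genes. LINC01000 had 11.21 and 11.63 with INK128 against 10.62 and 10.32 with DMSO, a difference of 0.95 (SE 0.24, adjusted p = 0.119). RAB30-DT had 6.65 and 6.63 against 7.45 and 7.58, a difference of -0.87 (SE 0.17, adjusted p = 0.0781). LINC02035 differed by 0.46 (adjusted p = 0.421) and LINC01002 by 0.84 (adjusted p = 0.239). With the 4 left-out arrays given the conditions of the datasets, INK128 could be followed in total RNA without and with carboplatin. There 17 RNAs were higher and 2 lower, against 6.68% and 5.9%. LINC01000 (0.80, adjusted p = 0.00542), LINC02035 (0.79, adjusted p = 0.0110) and BACE1-AS (0.82, adjusted p = 0.0221) were among the higher ones, and RAB30-DT (-0.56, adjusted p = 0.0112) and TENM3-AS1 (-0.50, adjusted p = 0.0248) were the lower ones.

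Whether INK128 changed the polysome minus total RNA difference was tested directly. It did so past the threshold for 0 of 8713 genes (0%; limma, 121 past an unadjusted p of 0.05, 1 of them among the 202 RNAs). The median change was -0.09 for the 202 RNAs and 0.02 for all genes tested, and it was 0.04 for the 202 RNAs without DMSO polysome array 1. GAS5 (-0.69, SE 0.36, adjusted p = 1.00) and CYTOR (-0.75, SE 0.37, adjusted p = 1.00) had large values with wide errors. They were at -0.40 (SE 0.32) and -0.39 (SE 0.28) without DMSO polysome array 1.

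Carboplatin for 5 h passed the threshold for 0 genes in each comparison that isolates it (limma, 0% of all genes tested each time). Against DMSO on polysomes, 5 of the 202 RNAs passed an unadjusted p of 0.05 (223 of all genes), with MALAT1 at -0.75 (SE 0.38) and GLIS3-AS1 at 0.58 (SE 0.37) the most distant from 0. Without DMSO polysome array 1 MALAT1 was at -0.42 (SE 0.41) and GLIS3-AS1 at 0.76 (SE 0.42), and 0% of all genes passed the adjusted threshold. There 31 of the 202 RNAs passed an unadjusted p of 0.05. The count for all genes without this array is not given, so nothing about carboplatin is read from these 31. In total RNA 11 of the 202 RNAs passed an unadjusted p of 0.05 (262 of all genes). Among them and the most distant were GLIS3-AS1 at 1.18 (SE 0.48), LINC00963 at -0.87 (SE 0.33), MALAT1 at -0.80 (SE 0.39) and CYTOR at 0.61 (SE 0.17). For the combination against INK128 on polysomes 5 did (258 of all genes), with SNHG8 at -0.80 (SE 0.47), LINC00933 at -0.77 (SE 0.41) and GLIS3-AS1 at 0.70 (SE 0.39). On combination polysome array 3, LINC00933 and SNHG8 (5.90) were lowest, and without it LINC00933 was at -0.04 (SE 0.15), SNHG8 at -0.38 (SE 0.48) and GLIS3-AS1 at 0.17 (SE 0.32). For the carboplatin change of the polysome minus total RNA difference 6 did (95 of all genes), with LINC02035 at 0.60 (SE 0.24) and USP2-AS1 at -0.56 (SE 0.20), and at 0.56 and -0.52 without DMSO polysome array 1. The smallest adjusted p of the 202 RNAs in these comparisons was 0.918 with all arrays used.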

How the data were processed

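OVCAR-3 total RNA and heavy polysome RNA were hybridized to 24 arrays. The authors normalized the arrays with RMA in Affymetrix Expression Console 1.4.1 and deposited 1 log2 signal per probeset (53617 probesets, array medians of 4.97 to 5.13), and these values were used as deposited. Symbols came from the platform annotation, which named 1 gene for 16098 probesets and none for 37519. Each gene was represented by its probeset with the highest mean, and genes with a mean of at least 6 were tested. A linear model with a mean for each group was fitted to all 8713 genes with limma 3.58.1 in R 4.3.3. Comparisons across fractions used the 20 arrays together, and those within a fraction used only its 13 polysome or 7 total RNA arrays. Tests were two-sided, with Benjamini-Hochberg adjustment over all genes tested, and a gene was called at an adjusted p under 0.05. The members and gene lists were chosen with earlier results of these data known. Named in every comparison could be MALAT1, CYTOR and the snoRNA hosts, then the 10 members with the largest change in each direction among those past the threshold (the 5 largest where fewer than 5 passed), their partners and listed genes. Members outside this rule, such as those singled out for arrays that did not overlap or for like sequence, were chosen after their values were seen. The number of arrays limits the precision. The paper describes independently performed sets of biological replicates, but fewer sets than the 3 or 4 arrays of each polysome group. Nothing in the labels says which replicates were separate cultures, so p-values measure the spread between these samples. On simulated data with 200 changed genes, a log2 change of 0.5 was recovered for 147 in polysome minus total RNA and for 100 in INK128 on polysomes. For INK128 on total RNA a change of 0.5 was recovered for 0 and a change of 1 for 59. Far more than 200 genes were called in the first 2 of these comparisons on the real data, so these figures do not give their power. Alternatives were other filters, normalizations, array assignments, weights and blocks, and each array left out. Sequences came from RefSeq.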

Additional observations from a re-analysis of the deposited data

Results flagged for a closer look

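Within the 4 carboplatin polysome arrays, 4 of 66 groups of values examined held 1 array far from the others, and chance alone gives about 1 in 20. PAXIP1-AS2 was at 6.57 on array 022_2, against 6.18 to 6.22 on the others. PITPNA-AS1 was at 9.26 on array 022_2, against 8.55 to 8.59. ZDHHC12-DT was at 6.47 on array 022_2, against 6.09 to 6.14. USP2-AS1 was at 6.15 on array 3, against 5.81 to 5.84.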

How the results depend on the processing

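Of the 202 RNAs, 106 passed in polysome minus total RNA, and each alternative gave a count within 1.5 times of that, from 71 with a filter at the median of the named genes (fewer RNAs tested) to 126 without DMSO polysome array 1 and combination polysome array 3, an alternative chosen after seeing the data. Leaving out 1 array gave 94 to 121, and with the replicate block the count stayed within that range. For INK128 on polysomes the 23 calls became 14 with that filter, 96 with array weights and 39 without both arrays, 34 with the replicate block, and 14 (without INK128 polysome array 2) to 36 (without DMSO polysome array 2) with 1 array left out. For INK128 against DMSO on polysomes the 4 calls became 1 with all arrays by their labels, 7 with only the groups compared, 94 with weights, 15 without both arrays, 6 with the replicate block, and 0 to 10 with 1 array left out. For the combination against DMSO the 7 calls became 4 with the filter, 12 with quantile normalization, 1 by labels, 11 with the datasets' conditions, 0 with only the groups compared, 99 with weights, 14 with the replicate block, 16 without both arrays, and 2 to 15 with 1 array left out. Carboplatin against DMSO on polysomes gave 23 calls with weights, and INK128 against DMSO in total RNA gave 4 with the datasets' conditions. The weights did not converge (DMSO polysome array 3 received 188), and otherwise the cause was not tested. Some INK128 values near 0 changed sign. MALAT1 was 0.00415 without the carboplatin arrays that carry a code, 0.172 without both arrays, and -0.457 to 0.00878 with 1 array left out. GAS5 was -0.0293 with centred arrays, -0.160 by labels, -0.0293 with the replicate block, -0.0389 without the coded arrays and -0.0948 to 0.152 with 1 array left out. CYTOR ranged over -0.216 to 0.0898 and SNHG5 over -0.223 to 0.0536 with 1 array left out, and SNHG5 was 0.0322 with weights and 0.141 without both arrays. Of 27 pairs of same-numbered arrays within a fraction, 13 had correlated deviations over 0.1 (-0.675 to 0.404, median 0.0934), against 13 of 52 other pairs (median -0.0547), and across fractions 8 of 29 did. The share over 0.1 was thus larger among same-numbered pairs within a fraction. The main fits did not pair the samples by number, and the counts with the replicate block are given above. The paper took total RNA from the lysates used for the polysomes, a pairing that the group means ignore. The datasets pair some same-numbered arrays across fractions, but also DMSO polysome array 3 with DMSO total array 2. With the datasets' pairs as a block, 97 RNAs were lower and 6 higher in polysome RNA. These pairs include the 4 left-out arrays under the datasets' conditions and no arrays with INK128 alone.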
